A study of Mus musculus with 4 samples.

Results

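Glutathione peroxidases, superoxide dismutases and catalase are the enzymes that dispose of reactive oxygen species, and they were followed here in mammary tumors formed with and without the sialyltransferase St6gal1. The set holds 10 genes, Gpx1, Gpx2, Gpx3, Gpx4, Gpx7, Gpx8, Sod1, Sod2, Sod3 and Cat, taken as every probe set whose annotated gene symbol is exactly one of these. They have 20 of the 45037 probe sets analysed. The members were chosen by gene family with their null to wild-type ratios known, and a rise of secreted Gpx3 of about 3-fold was part of that choice. The ratios between genotypes of these 10 genes are therefore given as a description. Where calls or p-values of the limma fit are listed for these ratios, no support is drawn from them.

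All tumors arose in C57BL/6 females with PyV-mT, the middle T oncogene of polyoma virus as a transgene, which gives mammary tumors and is shared by both genotypes. The St6gal1-/- animals, called null, are labelled as lacking the enzyme that adds alpha2-6-linked sialic acid to N-glycans, and the wild-type animals were their littermates. All were 110 days old and 14 days past tumor onset. Each of the 4 Affymetrix Mouse Genome 430 2.0 arrays held RNA from a pool of 3 tumors of 3 animals, and 1 null and 1 wild-type pool were compared in each of 2 sets. The promoter that drives the transgene and the deleted part of St6gal1 are not given in the sources used here. Pooling hides the spread between animals, so no error below includes it. Each SE is the moderated one of the limma fit. It draws mostly on the spread shared by all probe sets, and is not the spread of a gene's own pools.

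A superoxide dismutase turns superoxide into hydrogen peroxide, which catalase breaks down and glutathione peroxidases reduce with glutathione as the electron donor. The enzymes are kept apart by place. Gpx3 is the plasma enzyme, made as a secreted selenoprotein, and Sod3 is secreted and held on the matrix by its heparin-binding end. Gpx7 and Gpx8 sit in the endoplasmic reticulum, where they use peroxide in oxidative protein folding. Gpx1, Gpx2, Gpx4 and Sod1 work in the cytosol, with pools of some of them in other organelles, Sod2 in the mitochondrial matrix and catalase in peroxisomes.

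All 4 arrays had a trimmed mean signal of 2500.01 and median signals from 588 to 619. On its brighter probe set St6gal1 itself read 2337 and 3642 in the null pools of sets 1 and 2. The wild-type pools read 2330 and 2796. The log2 ratio was 0.19 ± 0.16 (SE from limma, 2 pools a genotype, limma adjusted p = 0.554). That probe set shows no loss in the null pools, and one outside the deleted part checks nothing, so directions rest on the labels. The luminal keratin gene Krt8 read from 101213 to 150715 on the 4 arrays, and is a marker of the labelled mammary epithelium. The 13 Y-linked probe sets, which have no target in female animals, read at most 565, and signals up to that value are called unspecific here. The ratio of 3' to 5' signal of Gapdh, which rises with degraded or incompletely labelled RNA, was 0.873 in null and 0.869 in wild-type tumors of set 1. The pools of set 2 had higher ratios, 2.13 in null and 1.57 in wild-type tumors. The same ratio of actin was 1.53 in null and 1.63 in wild-type tumors of set 1, and 2.12 and 1.96 in set 2. The 5' signal of 18S ribosomal RNA was 4272 in null and 11503 in wild-type tumors of set 1, and 217 and 486 in set 2.

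The secreted enzymes Gpx3 and Sod3 read higher in both null pools than in both wild-type pools. Gpx3 was about 3-fold higher in either set, Sod3 was higher in both sets by very different amounts, and Gpx7 of the endoplasmic reticulum was about 1.8-fold higher in both. The brightest probe sets of the 6 cytosolic, mitochondrial and peroxisomal enzymes had log2 ratios from -0.30 to 0.03. By the fit over all 22519 probe sets above the filter on dim signal, limma called 3 of the 17 tested probe sets of these genes, 3 higher and 0 lower in the null pools, beside 7.3% of all tested probe sets called, 4.05% higher and 3.25% lower. Since the same ratios chose the members, nothing is read from that count. Without the set as a term, or without the intensity trend of the fit, limma called 0 of the 17 (2 and 3 at an unadjusted p under 0.05), 0 of the related genes described further on (7 and 13) and 0 of all probe sets (1280 and 3486 at an unadjusted p under 0.05). All 10 genes had at least 1 tested probe set.

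Gpx3 read 32592 and 42332 in the null pools of sets 1 and 2, against 10308 and 14945 in the wild-type pools. Both null pools lay above both wild-type pools, and no array was near the unspecific level. The null pool was 3.16-fold higher in set 1 and 2.83-fold higher in set 2. Over both sets this came to a log2 ratio of 1.58 ± 0.09 (SE from limma, as for every log2 ratio below, n = 2 pools of each genotype), or 2.99-fold. Its ratio ranked 73 from the top among all 22519 tested probe sets.

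Sod3, the extracellular superoxide dismutase, read 1848 and 1632 in the null pools of sets 1 and 2, against 1230 and 74.1 in the wild-type pools. The null pools were close to each other and above both wild-type pools, and the wild-type pools were far apart. The wild-type signal of set 2 lay within the unspecific level, so its fold is a bound: the null pool was 1.50-fold higher in set 1 and at least 2.89-fold higher than that level in set 2. The fitted log2 ratio of 2.20 ± 0.53 rests on that array, and was 1.02 when signals at or below the unspecific level were raised to it, a step added after seeing the data. The dimmer probe set of Sod3 fell below the filter. It read 578 and 313 in the null pools, against 115 and 48.8 in the wild-type pools, so that 1 of 4 arrays was above the unspecific level and no fold is given.

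Gpx7 read 1545 and 2084 in the null pools of sets 1 and 2, against 859 and 1181 in the wild-type pools. Both null pools were above both wild-type pools, by 1.80-fold in set 1 and 1.76-fold in set 2, with a log2 ratio of 0.81 ± 0.22. Without the filter on dim probe sets its call was lost. Gpx8, the membrane-bound peroxidase of the same organelle, read 2121 and 2613 in the null pools, against 2188 and 2170 in the wild-type pools. Its genotypes overlapped, and its log2 ratio was 0.11 ± 0.17.

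**Figure D1:**
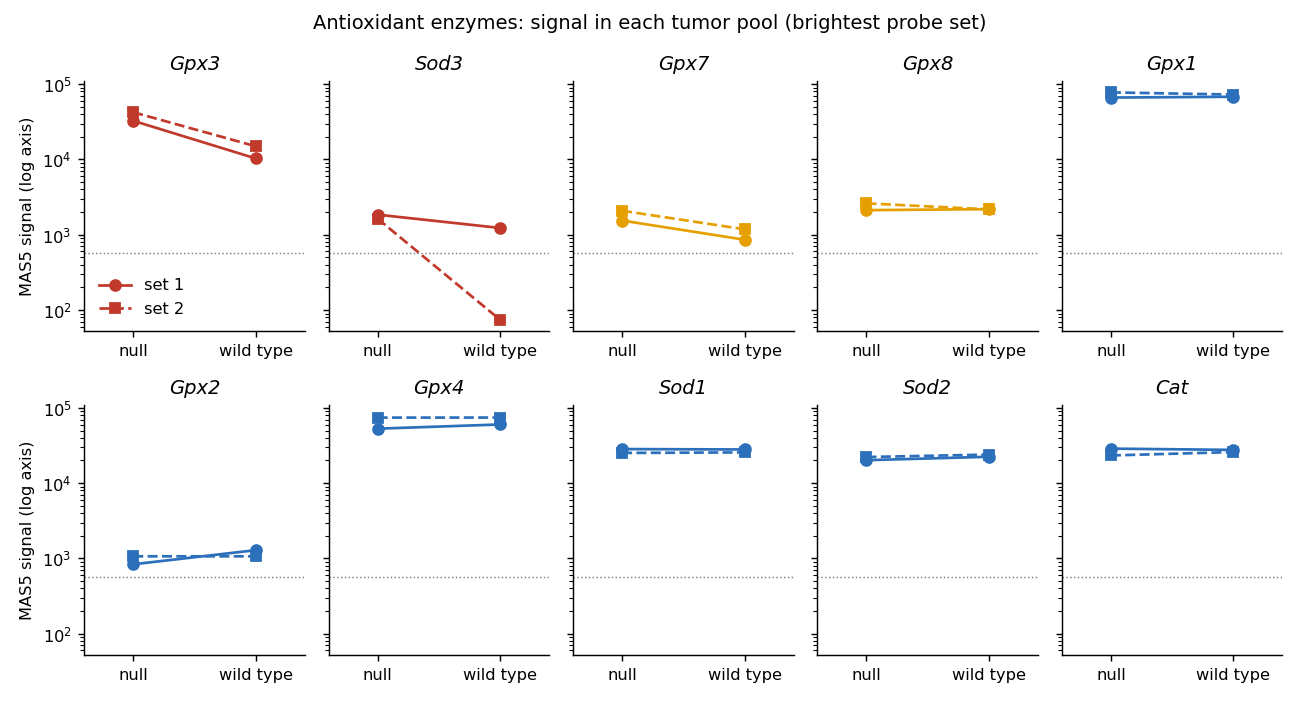
MAS5 signal (log axis) of the brightest probe set of each of the 10 genes, with the null pool on the left and the wild-type pool on the right, set 1 as circles with solid lines and set 2 as squares with dashed lines. The dotted line is the unspecific level of 565. Gpx3 and Gpx7 slope down to the wild-type pools alike in both sets, Sod3 drops under the dotted line only for the wild-type tumors of set 2, and the lower row lies nearly flat except for Gpx2 in set 1.

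Gpx1, the most widespread glutathione peroxidase, read 66354 and 77666 in the null pools of sets 1 and 2, against 67967 and 72709 in the wild-type pools. The genotypes overlapped and the log2 ratio was 0.03 ± 0.09. Gpx4, which reduces lipid peroxides within membranes, gave log2 ratios of -0.09 ± 0.09 and -0.02 ± 0.08 on its 2 probe sets. Its brighter probe set read 52869 and 74164 in the null pools, against 60154 and 74301 in the wild-type pools, so the sets differed more than the genotypes. That probe set carries the suffix by which the array marks probes that may bind other transcripts too. Gpx2, the peroxidase of gut and other epithelia, read 837 and 1068 in the null pools, against 1288 and 1067 in the wild-type pools. The null tumors read lower in set 1 only, and its log2 ratio of -0.30 ± 0.27 was the lowest among the brightest probe sets of the 10 genes.

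Sod1, the copper and zinc enzyme of the cytosol, read 28352 and 25179 in the null pools of sets 1 and 2, against 27997 and 25596 in the wild-type pools on its brightest probe set, a log2 ratio of 0.00 ± 0.08. Its suffix marks probes shared with other transcripts. The other tested probe sets of Sod1 had log2 ratios of 0.06 ± 0.10, -0.12 ± 0.12 and -0.37 ± 0.27, and the remaining one lay within the unspecific level on 4 of 4 arrays. Sod2, the manganese enzyme of mitochondria, read 20178 and 22222 in the null pools, against 22392 and 23946 in the wild-type pools. Both null pools were below both wild-type pools, by a log2 ratio of -0.13 ± 0.08, and the other tested probe sets of Sod2 were at -0.14 ± 0.08 and -0.17 ± 0.14. None of the 3 was called. A dim probe set of Sod2 fell below the filter and was within the unspecific level on 3 of 4 arrays. It read 188 and 435 in the null pools, against 504 and 676 in the wild-type pools.

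Catalase (Cat) read 28733 and 23310 in the null pools of sets 1 and 2, against 27637 and 25882 in the wild-type pools, with a log2 ratio of -0.05 ± 0.09. Its dimmer probe set read 17783 and 6337 in the null pools, against 18507 and 9872 in the wild-type pools. The null pool was 0.642 times the wild-type pool in set 2 and 0.961 times in set 1, and the mean log2 ratio of -0.35 ± 0.12 was not called. In set 2 the Gapdh 3' to 5' ratio was also higher in the null pool, 2.13 against 1.57. That of actin was 2.12 against 1.96, and the part of RNA quality in this difference was not tested.

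Taken by place, the brightest probe sets of the secreted genes had log2 ratios of 1.58 for Gpx3 and 2.20 for Sod3 (1.02 with dim signals raised to the unspecific level), and those of the endoplasmic reticulum genes 0.81 and 0.11, and the median of the other 6 was -0.07. The median of all 22519 tested probe sets was -0.03. Within set 1 the ratios of the 6 cytosolic, mitochondrial and peroxisomal genes ran from -0.60 to 0.06, and within set 2 from -0.15 to 0.10. Among the 17 tested probe sets, 3 had both null pools above both wild-type pools and 2 had them below, beside 15.1% and 16.9% of all tested probe sets, or 32% in either direction.

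**Figure D2:**
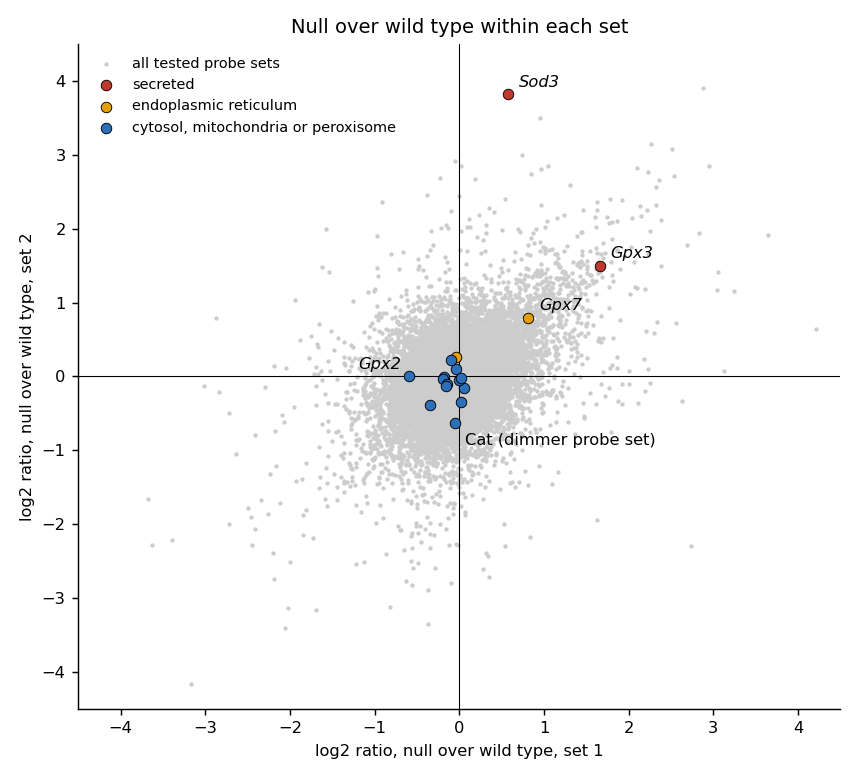
Log2 ratio of the null over the wild-type pool in set 1 (horizontal) and in set 2 (vertical) for the 17 tested probe sets of the antioxidant genes, coloured by the place of the enzyme, over all 22519 tested probe sets in grey (2 of which lie outside the axes). Gpx3 (1.66 and 1.50) and Gpx7 (0.81 and 0.80) lie on the diagonal. Sod3 (0.57 and 3.83) lies far above it, with a set 2 value that divides by a wild-type signal within the unspecific level. Most probe sets of the cytosolic, mitochondrial and peroxisomal enzymes lie around 0. Among them Gpx2 is at -0.60 in set 1 and the dimmer Cat probe set at -0.64 in set 2.

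The proximal promoters of Gpx3 and Gpx7, higher in the null pools with like ratios in both sets, are printed with that of Gpx1. The genotypes of Gpx1 overlapped, and the 250 bases before each start can be compared. They are from RefSeq on GRCm38.p6, 5' to 3' on the strand of the gene: chr11:54902604-54902853 (+ strand) for Gpx3, chr4:108406714-108406963 (- strand) for Gpx7 and chr9:108338830-108339079 (+ strand) for Gpx1. Capitals mark any match, on either strand, to 6 short motifs: GGGCGG for the GC box, CCAAT for the box of that name, TGACNNNGC for the core of the antioxidant response element that Nrf2 binds, TGACTCA for AP-1, ACGTG for the core of the hypoxia response element and TATAAA for the TATA box.
Gpx3: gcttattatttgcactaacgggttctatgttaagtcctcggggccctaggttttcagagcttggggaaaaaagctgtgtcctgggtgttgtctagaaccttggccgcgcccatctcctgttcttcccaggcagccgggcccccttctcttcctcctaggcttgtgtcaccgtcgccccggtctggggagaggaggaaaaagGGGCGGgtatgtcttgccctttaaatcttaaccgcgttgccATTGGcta
Gpx7: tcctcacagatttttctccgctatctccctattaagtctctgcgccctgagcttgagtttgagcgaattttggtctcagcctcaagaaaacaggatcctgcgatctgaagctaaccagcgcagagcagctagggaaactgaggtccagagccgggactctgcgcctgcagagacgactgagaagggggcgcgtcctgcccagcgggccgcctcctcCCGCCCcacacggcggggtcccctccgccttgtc
Gpx1: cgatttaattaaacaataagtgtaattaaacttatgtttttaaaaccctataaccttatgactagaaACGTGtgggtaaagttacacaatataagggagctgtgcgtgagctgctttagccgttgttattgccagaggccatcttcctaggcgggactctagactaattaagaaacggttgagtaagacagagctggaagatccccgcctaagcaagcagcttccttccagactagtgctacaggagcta
Gpx3 holds 1 GC box and 1 CCAAT box, read on the other strand as ATTGG, Gpx7 holds 1 GC box, read as CCGCCC, and Gpx1 holds 1 ACGTG. None of these matches overlap. The reference table gave 12 such promoters for 9 of the 10 genes, 4 of them for Gpx4, of which 2 overlap. The GC box was in 8 of the 12, against 32.7% of 32851 promoters of all genes, and the CCAAT box also in 8 of the 12, against 33.8%. The antioxidant response core was in 1 of the 12, that of Sod1, against 10.2% of all promoters, and TGACTCA in 0 of the 12, against 4.46%. These windows hold 250 bases only, and a match is a run of letters, not a binding site.

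The genes whose signals followed Gpx3 most closely over the 4 arrays were Col6a2, Loxl1, Spon1, Fn1 and Serping1. Likeness was the Euclidean distance between log2 profiles centred on their own means, over 4 arrays, and it ran from 0.106 for Col6a2, a chain of type VI collagen, to 0.144 for Serping1, the C1 inhibitor. Col6a2 read 16355 and 22077 in the null pools, against 5720 and 7792 in the wild-type pools. Loxl1 crosslinks elastin, Spon1 encodes a secreted matrix protein and Fn1 fibronectin, and their log2 ratios were 1.67, 1.51 and 1.65. The Gpx3 profile differs mainly by genotype, so genes picked this way have ratios near its 1.58 by construction. No link to Gpx3 is read from them.

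Like Gpx3, Sod3 and Gpx7, most markers of stromal cells and fat read higher in the null pools, and so did most cell cycle markers. From set 1 to set 2 the adipocyte sums fell in both genotypes, but their markers did not move alike. Adipoq and Fabp4 fell in both genotypes and Plin4 rose in both. All 9 fibroblast markers were called higher, beside 4.05% of all tested probe sets called higher and 3.25% lower, with a median log2 ratio of 1.39, and their summed signal was 2.13-fold higher in the null pool of set 1 and 2.36-fold higher in set 2. It was 343889 and 396170 in the null pools, against 161512 and 167854 in the wild-type pools. Of 6 tested adipocyte markers 5 were called higher (median 1.30), with sums of 62717 and 54953 in the null pools, against 25344 and 22579 in the wild-type pools. Lep, the hormone of fat cells, read within the unspecific level on all 4 arrays. The marker sums hold every listed gene with a probe set, tested or not. They therefore include Lep and, among endothelial markers, Pecam1, which were not tested. Of 7 endothelial and pericyte markers 3 were called higher (median 0.76, sums of 26388 and 27895 in the null pools, against 15072 and 15396 in the wild-type pools), as were 3 of 7 muscle markers (median 0.87, sums of 12328 and 11003 in the null pools, against 7468 and 7433 in the wild-type pools). Their part in the ratios of Gpx3, Sod3 and Gpx7 was not tested, and in these whole tumors more cells of a type and more RNA per cell cannot be told apart. Of 6 macrophage markers 2 were called higher (median 0.15, sums of 83211 and 90195 in the null pools, against 72627 and 78725 in the wild-type pools). Of the 7 luminal markers 1 was called higher (median -0.08) and of 6 basal markers 3 were called lower (median -0.48). Of 5 cell cycle markers 4 were called higher (median 0.74, sums of 47417 and 54735 in the null pools, against 35569 and 31213 in the wild-type pools). For neutrophils and erythrocytes only 1 marker each was tested, with S100a9 and Mpo, and Hba-a1 and Slc4a1, unspecific on all arrays. That neutrophil marker, S100a8, was called lower, by a log2 ratio of -1.86.

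Of 121 listed genes of the wider antioxidant system 109 had a probe set with a single symbol and 100 were tested, and 9 were called higher and 5 lower in the null pools, beside 4.05% and 3.25% of all tested probe sets, or 7.3% in either direction. Their median log2 ratio was 0.05, against -0.03 over all tested probe sets. Here and for the markers above, each gene counts by its brightest tested probe set. The shares cover all tested probe sets, dim and secondary ones included, so they are not like for like. Gpx5 and Gpx6, the glutathione peroxidases of epididymis and olfactory epithelium, read within the unspecific level on all arrays.

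Among the peroxiredoxins, thioredoxins and their partners 0 of 17 tested genes rose and 1 fell. Sesn3, a sestrin, fell by 0.40 ± 0.11 on the log2 scale (limma adjusted p = 0.0464), but its second tested probe set was at -0.04 ± 0.10. Of 17 genes of glutathione synthesis and use 2 rose and 1 fell. The glutathione transferase genes Gstm2 and Gsta4 rose 2.45-fold (adjusted p = 0.00164) and 1.51-fold (adjusted p = 0.0278). Gstm2 read 2480 and 2034 in the null pools, against 1009 and 786 in the wild-type pools. Slc3a2, the shared heavy chain of the cystine transporter, fell by 0.49 ± 0.09 (adjusted p = 0.00278).

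Nrf2 is the transcription factor that induces many antioxidant genes, and of the 13 genes tested in its list and in NADPH supply 1 rose and 1 fell. Me1, malic enzyme, rose 1.58-fold (adjusted p = 0.000545), with a log2 ratio of 0.41 ± 0.09 on its other probe set. Keap1, which holds Nrf2 back, fell by 0.46 ± 0.13 (adjusted p = 0.0419), while its other tested probe set was at 0.26 ± 0.27. The Nrf2 targets Nqo1 and Hmox1 were at -0.17 ± 0.12 and 0.16 ± 0.29, neither called. Of 17 genes of selenium handling and other selenoproteins 0 were called, with Selenop, the selenium carrier of plasma that is itself secreted, at 0.16 ± 0.09. For that list 17 genes ranged from -0.28 to 0.26.

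Of 13 tested genes for sources of superoxide and peroxide 4 were called higher and 1 lower, beside 4.05% and 3.25% of all tested probe sets. The lists were chosen with earlier results of these data known, so nothing is read from that count. Duoxa1, which brings dual oxidase to the cell surface, read 548 and 235 in the null pools, against 5280 and 4972 in the wild-type pools, and was at least 8.49-fold lower (adjusted p = 5.25e-07). Duox1, its partner enzyme, read 309 and 527 in the null pools, both within the unspecific level, against 763 and 991 in the wild-type pools, and was not called. Aoc3, an amine oxidase of fat and vessels that releases peroxide, rose 2.27-fold (adjusted p = 0.0107), and Cyba, a subunit of the phagocyte oxidase, rose 1.31-fold (adjusted p = 0.0200). Ero1a, the oxidase of the endoplasmic reticulum whose peroxide Gpx7 and Gpx8 can use, rose 1.32-fold on its brightest probe set (adjusted p = 0.0412), with the other probe sets at -0.07 ± 0.13 and -0.42 ± 0.18. Sqor, which oxidises sulfide and was named after its value was seen, rose 1.30-fold (adjusted p = 0.0471).

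Copper delivery to the dismutases gave 1 call in 5 genes: Slc31a2, a copper transporter, rose 1.49-fold (adjusted p = 0.00288), with a log2 ratio of 0.87 ± 0.14 on its other probe set. Ccs, the chaperone that loads copper into Sod1, was at 0.10 ± 0.12. Of 11 peroxisomal genes, the company of catalase, 0 were called. In the list of lipid peroxidation and ferroptosis, the process that Gpx4 restrains, 1 of 7 rose and 1 fell. Tfrc, the transferrin receptor, rose 1.28-fold (adjusted p = 0.0326) on its brighter probe set, while the dimmer one, within the unspecific level in both pools of set 2, was not called, and Acsl4, which makes the lipids that peroxidise, fell by 0.36 ± 0.08 (adjusted p = 0.0164), with another probe set at -0.20 ± 0.14 and a further one lower in both sets but within the unspecific level in the null pool of set 2.

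**Figure D3:**
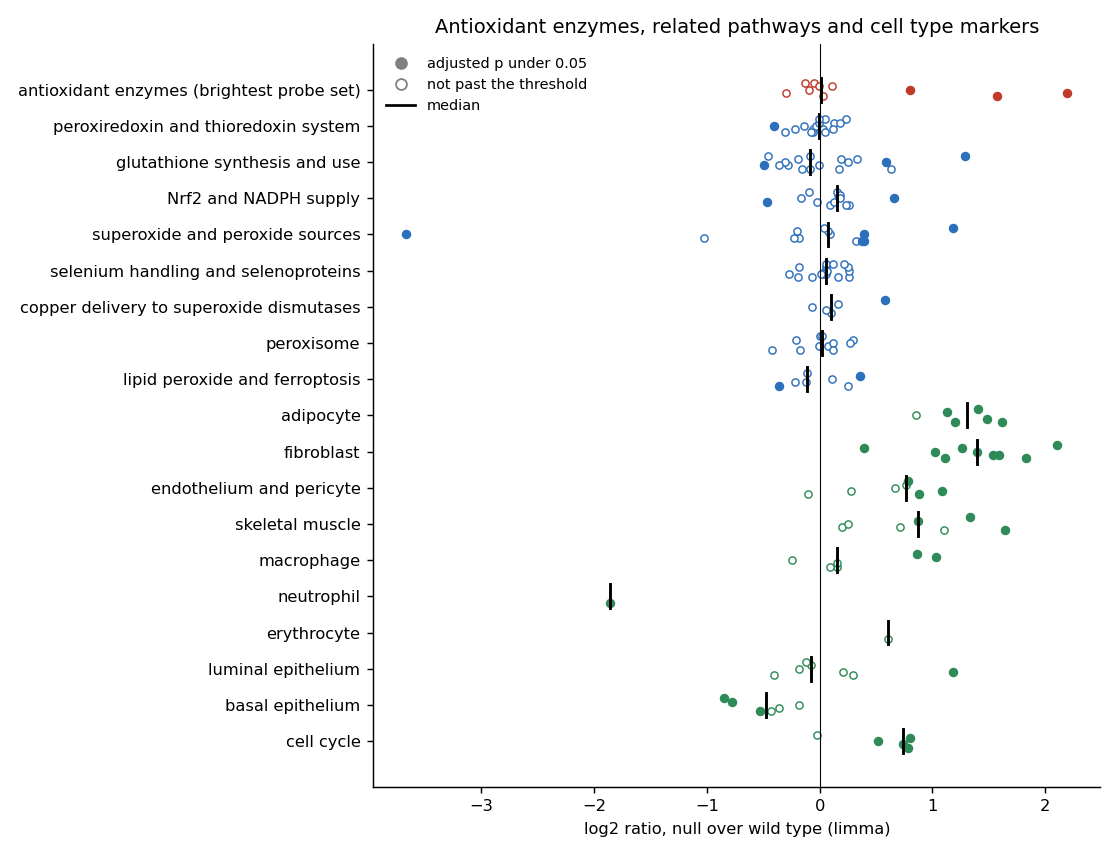
Log2 ratio of null over wild type (limma) for the brightest tested probe set of each gene, by list: antioxidant enzymes in red, related pathways in blue, cell type markers in green. Filled points passed an adjusted p of 0.05 and black bars are medians. The antioxidant enzymes split into 3 high genes and 7 near 0, pathway medians lie between -0.11 and 0.15, and the fibroblast (1.39) and adipocyte (1.30) medians lie far to the right.

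The difference between the sets was not used to choose the members and could be tested. Of the 17 probe sets 6 differed between set 2 and set 1, beside 23.6% of all tested probe sets, with 3 higher and 3 lower in set 2. The count was 5 without the filter on dim signal, with the filter at the 75th percentile or with dim signals raised to the unspecific level, and from 0 to 2 with 1 array left out. When limma ran with no trend 0 were called, with 5 at an unadjusted p under 0.05. Gpx3 was higher in set 2 by 0.46 ± 0.09 on the log2 scale (limma adjusted p = 0.00179), as were the brighter probe set of Gpx4, by 0.40 ± 0.09 (adjusted p = 0.00533), and 1 of 4 tested Sod1 probe sets, by 0.33 ± 0.10 (adjusted p = 0.0236). The rise of Gpx3 was seen in both genotypes, 0.38 between null pools and 0.53 between wild-type pools.

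The dimmer probe set of Cat fell by 1.19 ± 0.12 (adjusted p = 9.67e-06) in set 2, whereas its brighter probe set was at -0.20 ± 0.09. Another Sod1 probe set fell by 0.93 ± 0.27 (adjusted p = 0.0216), while the brightest was at -0.15 ± 0.08, so probe sets of 1 gene did not move alike between the sets. Sod3 was also called lower in set 2 (adjusted p = 0.0247), but the wild-type signal of set 2 lay within the unspecific level, so no size is given. With dim signals raised to that level it was at -0.62 ± 0.25 and its call was lost (adjusted p = 0.0665). The Gapdh 3' to 5' ratios were 2.13 and 1.57 in set 2, against 0.873 and 0.869 in set 1, and their part in these values was not tested. Animals and handling differed together between the sets and cannot be told apart.

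**Figure D4:**
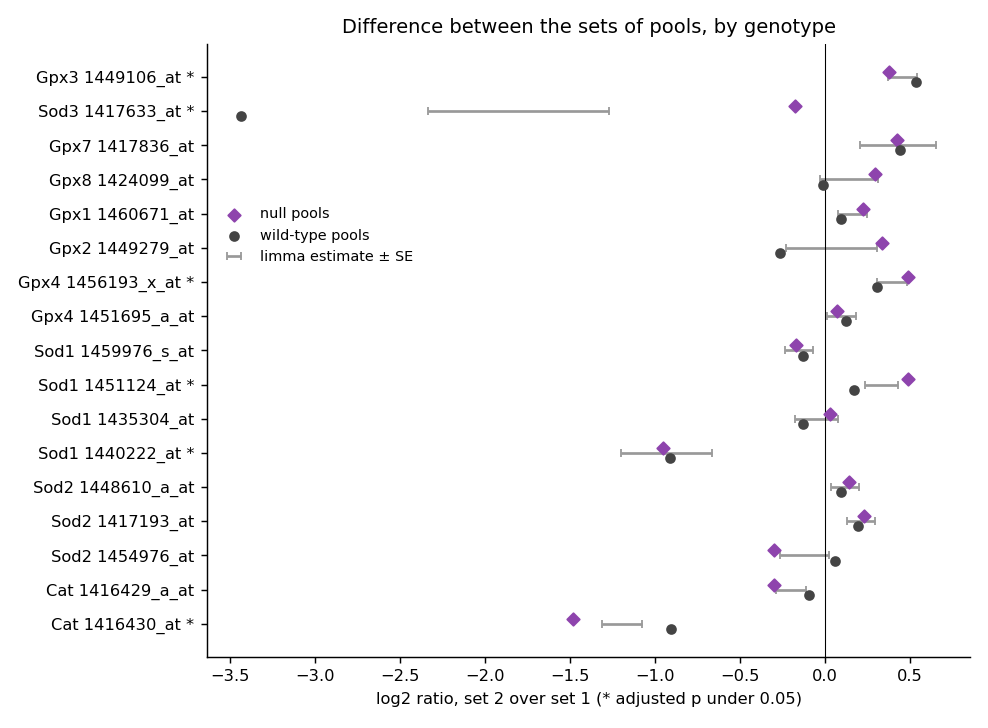
Log2 ratio of set 2 over set 1 for the 17 tested probe sets, for the null pools (diamonds) and the wild-type pools (circles), with the limma estimate ± SE as grey bars and an asterisk where the adjusted p was under 0.05. The dimmer Cat probe set and 1 Sod1 probe set are lower in set 2 in both genotypes, whereas for Sod3 the null pools differ by -0.18 and the point of the wild-type pools, at -3.43, rests on a set 2 signal within the unspecific level.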

How the data were processed

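RNA of 4 pools of 3 tumors was measured on 1-colour Affymetrix arrays. The deposited values are linear probe set intensities made by the authors with MAS5, per the submitters' processing notes. Its version and any detection calls are not given in the sources used here. Trimming 2% at each end gave every array an equal mean, so the intensities were used as deposited. Of 45101 probe sets 64 controls were left out. The probe annotation gave 1 symbol for 34945, several for 932 and none for 9160. 34741 matched the mouse reference table, and 0 symbols changed. Values became log2(value + 44), 44 being the 10th percentile, which understates changes of dim genes. The 22519 probe sets whose mean signal reached the median were fitted with limma 3.58.1 in R 4.3.3 (lmFit, eBayes with intensity trend, set and genotype as terms, Benjamini-Hochberg, threshold 0.05). Set enters as a block since the submitters' design text pairs 1 null with 1 wild-type pool per set. Deviations from group means correlated at 0.605 within sets, a value equal for both by construction. There is 1 residual degree of freedom and a prior of 13.0 from eBayes, so calls lean on the spread shared by all probe sets. The smallest two-sided p of an exact permutation test that moves all 4 arrays freely is 0.333. A test that kept the pairing by set could not go as low. The number of arrays limits precision.

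A gene with several probe sets is led by its brightest one. The fit was tested on simulated data. All members and, per list, up to 4 called genes with the largest change shared by both sets were named. Uncalled genes of the lists (Nqo1, Hmox1, Selenop, Duox1, Ccs) were named for their role. Members and lists were chosen with earlier results of these data known. The alternatives tried were 2 other normalizations (quantile, cyclic loess), other pseudocounts and filters, no set, no trend, each array left out and, added later, a floor at the unspecific level.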

Additional observations from a re-analysis of the deposited data

Results flagged for a closer look

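For 8 of the 17 tested probe sets the null over wild-type ratio had opposite signs in the 2 sets. The share of all tested probe sets with opposite signs was not counted, and log2 ratios near 0 change sign easily. Nothing about these genes is therefore read from that count. With 1 pair of pools per set the difference between the sets was not tested. The values are the log2 ratio of set 2 minus that of set 1. It was 0.60 for Gpx2, 0.31 for Gpx8, 0.13 for Gpx1 and -0.21 for the brighter probe set of Cat. Of the Sod1 probe sets, the brightest had -0.042 and the next 0.32. The dimmer Gpx4 probe set had -0.050 and 1 Sod2 probe set had -0.36.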

How the results depend on the processing

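The genotype ratios chose the members, so their calls are listed as a description. Under quantile and cyclic loess normalization and with pseudocounts of 16 and 176 they were Gpx3, Sod3 and Gpx7. Without a filter the calls were Sod3 and Gpx3 (Gpx7 adjusted p = 0.0699), and with the filter at the 75th percentile 1 call was left, Gpx3, as Sod3 and Gpx7 were not tested. Raising dim signals to the unspecific level, chosen after seeing the data, gave 4 calls, with the dimmer Cat probe set added. Counts at an unadjusted p under 0.05 stand in parentheses. In limma without the set as a replicate block, calls fell to 0 over all probe sets (1280), 0 members (2) and 0 related pathway genes (7), and without the intensity trend to 0 over all probe sets (3486), 0 members (3), 0 pathway genes (13) and 0 members between sets (5). The Gpx3 log2 ratio was 1.58 in both fits, not called (adjusted p = 0.187 and adjusted p = 0.138). Leaving out 1 array, fitted without the set, gave from 4 to 27 calls over all probe sets, from 0 to 1 member (Sod3, without the wild-type pool of set 1), from 0 to 1 pathway gene, and from 0 to 2 members between sets. Each complete set alone gave Gpx3 a log2 ratio of 1.66 and 1.50, and the 10 genes a median of -0.01 and 0.05, against 0.01 over both. The calls thus need the set term and the trend, and lean on 1 residual degree of freedom. Dim signals of Sod3, Gpx2 and Gpx7 limit what their ratios show.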
